A study of Arabidopsis thaliana with 12 samples.

Results

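The GSK3/SHAGGY-like kinases are a family of 10 Arabidopsis genes, examined here for regions whose chromatin accessibility differed between *h3.3ko* and Col mature seeds. The family was chosen by accessibility, since *SK32* holds one of the largest gains among all listed regions, so the values at *SK32*, and the counts that include it, are a description of what chose the family. The 10 members, of 27444 protein-coding genes in all, are *SK11* (AT5G26751), *SK12* (AT3G05840), *SK13* (AT5G14640), *SK21* (AT4G18710, better known as *BIN2*), *SK22* (AT1G06390), *SK23* (AT2G30980), *SK31* (AT3G61160), *SK32* (AT4G00720), *SK41* (AT1G09840) and *SK42* (AT1G57870). A member was counted as having a region when its gene body, the 1 kb upstream of its transcription start site (TSS) or the 500 bp past its transcription end site (TES) shared at least 1 bp with a region of either list.

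ATAC-seq measures where the transposase Tn5 can insert sequencing adapters into chromatin, so that read density follows accessibility. The assay used sorted nuclei of *h3.3ko* mature seeds, whose line carries CRISPR-Cas9 made mutations in *HTR4* and *HTR5* and a T-DNA insertion in *HTR8*, the genes encoding histone H3.3, and of mature seeds of the wild-type accession Col, with 2 libraries for each genotype. Seeds of both genotypes had been after-ripened in storage. The *h3.3ko* seeds were picked, by their lack of mCherry signal, from plants heterozygous for a *pHTR5::HTR5* transgene, so their mother plants carried an H3.3 gene, and seeds hold embryo, endosperm and seed coat cells. The labels cover 12 libraries in 6 groups, of which the imbibed seeds and the seedlings were not analysed here.

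The data are the authors' lists of 3436 increased and 3278 decreased regions, each region with 1 value as the authors deposited it. The value carries no header. It was read as the log2 ratio of *h3.3ko* to Col, since its sign matches the name of each list, and is called the log2 fold change here. A positive value means higher accessibility in *h3.3ko*. There is no value for each library, the depth behind the values is unknown from the lists, and neither a spread between replicates nor a test of any difference can be given. A region absent from both lists did not pass the authors' thresholds, and this does not show that accessibility was equal in *h3.3ko* and Col.

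GSK3/SHAGGY-like kinases are serine/threonine kinases, some of which act as brakes in plant signalling. *BIN2*, the best-studied member, phosphorylates the transcription factors BZR1 and BES1 and keeps them inactive while brassinosteroid is low. When the hormone binds the receptor BRI1 and its co-receptor BAK1, receptor-like cytoplasmic kinases of the BSK family and phosphatases of the BSU1 family relay the signal, BIN2 is dephosphorylated and degraded, and the factors become active. In seeds, BIN2 is also known to phosphorylate ABI5, a transcription factor of abscisic acid signalling that holds back germination.

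Regions were listed at 7 of the 10 kinases, decreased ones at gene starts and increased ones mostly at the last exons or past them, with *SK11* as the exception. Increased regions were found at 5 kinases (*SK11*, *SK12*, *BIN2*, *SK23* and *SK32*), against 18.1% of all protein-coding genes with an increased region in the same window. Decreased regions were found at 3 kinases (*SK13*, *BIN2* and *SK31*), against 15.8% of all protein-coding genes. *BIN2* was the 1 kinase with regions of both lists, against 3.90% of all genes, and *SK22*, *SK41* and *SK42* had no region of either list, against 70.0%. The kinase genes are long, with a median of 3920.5 bp against 2078 bp for all protein-coding genes. Among the 5572 protein-coding genes within the kinases' length range of 3015 to 5279 bp, 31.4% had an increased region, 19.6% a decreased one, 7.99% both and 57.0% neither. With 5, 3, 1 and 3 of 10 kinases in these classes, and with *SK32* chosen for its gain, nothing particular to the family is read from the counts.

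**Figure D1:**
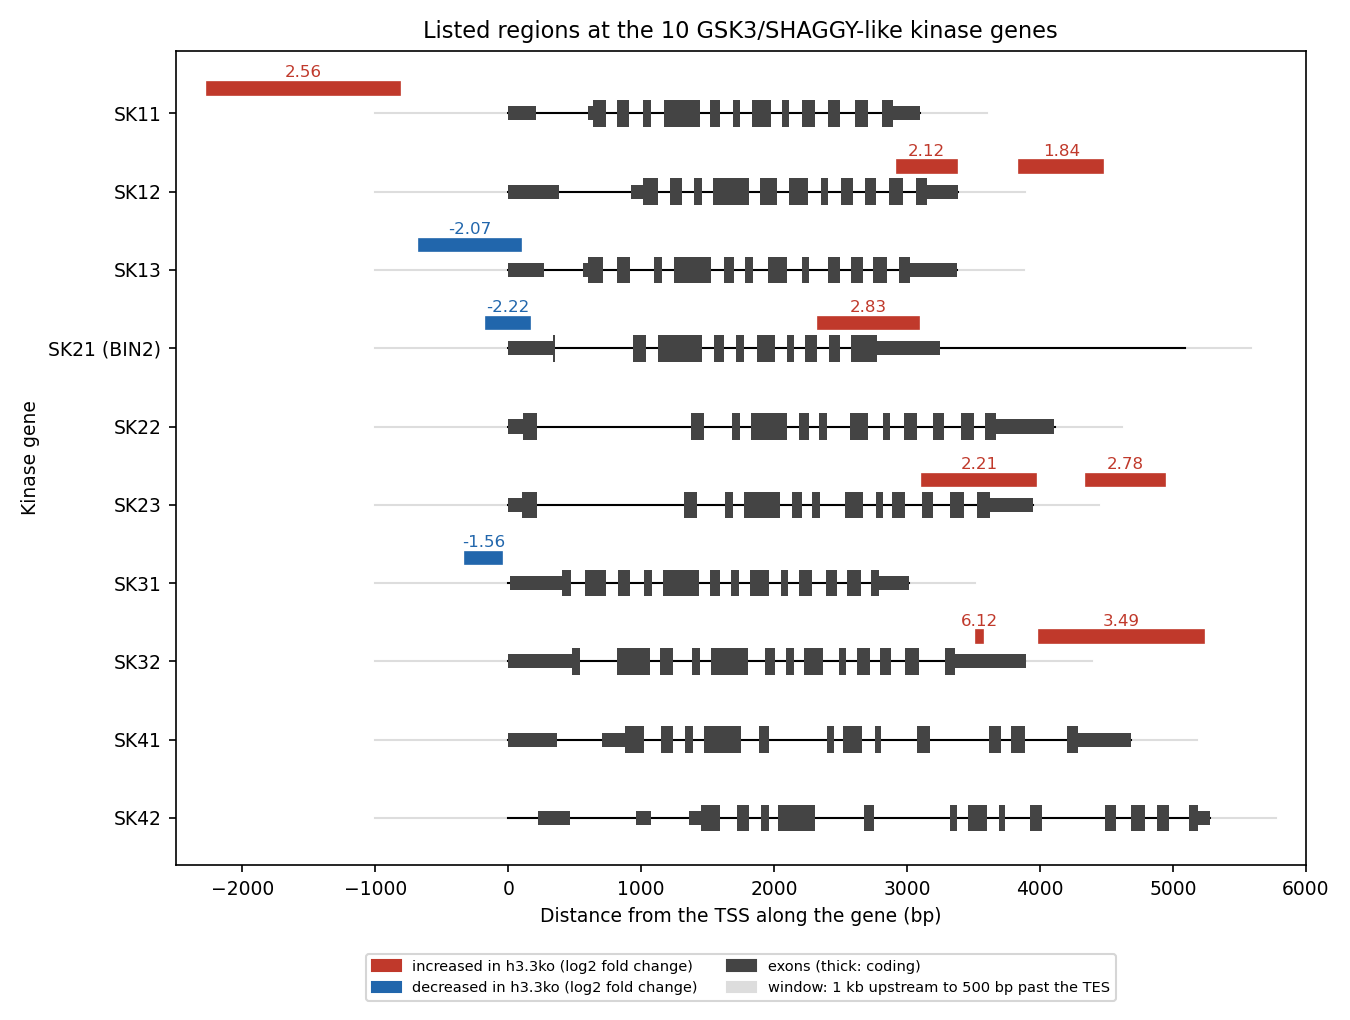
Map of the 10 kinase genes, with distance from the TSS along the gene in bp on the x axis and 1 gene in each row, exons as dark boxes (thick where coding), and listed regions as red (increased in *h3.3ko*) or blue (decreased) bars under their log2 fold change. Decreased bars sit at the left, over or before the TSS of *SK13*, *BIN2* and *SK31*, and increased bars sit over or past the last exons of *SK12*, *BIN2*, *SK23* and *SK32*, while the increased bar of *SK11* lies upstream of the gene.

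The sequences below are the reference bases under the decreased regions of the kinases upstream of their TSS, in TAIR10.1, whose nuclear coordinates are those of the deposited TAIR10 regions, written 5′ to 3′ on the strand of the gene. They are shown because these are the stretches of kinase promoters that became less accessible in *h3.3ko*. Capitals mark TGGGCC, a 6-base string searched on both strands after the sequence of *SK31* had been read.
*BIN2*, chr4:10295972-10296137, plus strand: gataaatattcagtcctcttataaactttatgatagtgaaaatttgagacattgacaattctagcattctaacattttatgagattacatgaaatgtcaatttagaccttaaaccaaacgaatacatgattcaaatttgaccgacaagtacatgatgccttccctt
*SK13*, chr5:4722372-4722571, minus strand, the 200 bp next to the TSS: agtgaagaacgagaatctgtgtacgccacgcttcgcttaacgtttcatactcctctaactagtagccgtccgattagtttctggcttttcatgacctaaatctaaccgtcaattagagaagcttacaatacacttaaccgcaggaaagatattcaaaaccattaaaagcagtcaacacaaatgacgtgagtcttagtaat
*SK31*, chr3:22635480-22635754, plus strand: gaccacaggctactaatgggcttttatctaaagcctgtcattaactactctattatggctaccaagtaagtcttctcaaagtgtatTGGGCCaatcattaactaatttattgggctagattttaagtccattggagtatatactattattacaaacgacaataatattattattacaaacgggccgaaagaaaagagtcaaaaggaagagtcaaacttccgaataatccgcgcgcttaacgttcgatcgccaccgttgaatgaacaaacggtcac
None of the printed stretches held CACGTG, the G-box bound by bZIP and bHLH factors, nor CGTGTG or CGTGCG, forms of the brassinosteroid-response element bound by BZR1. Each motif was searched as these exact letters on both strands, and CACGTG and CGTGTG can overlap. In the 250 bp upstream of all 27443 protein-coding genes with such a window, CACGTG was present in 6.49%, CGTGTG in 5.37%, CGTGCG in 1.57% and TGGGCC in 13.7%. No kinase had any of the first 3 in that window, and *SK31* was the 1 kinase with TGGGCC there.

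*BIN2* occupies chr4:10296138-10301228, plus strand. Its decreased region (chr4:10295972-10296300) had a log2 fold change of -2.22 in *h3.3ko* against Col, which ranked 901 of 3278 by size. The 329 bp were divided almost evenly between 166 bp upstream and 163 bp of 5′ UTR, with the midpoint 2 bp upstream of the TSS. The region thus covered the start of the gene. Its increased region (chr4:10298466-10299224) had a log2 fold change of 2.83, ranked 1952 of 3436. These 759 bp held 282 bp of coding exon, 166 bp of intron and 311 bp of 3′ UTR of the main transcript, in exons 9 and 10 of 10, and ended 165 bp before the end of that transcript. *BIN2* was therefore listed as less open in *h3.3ko* at its start and more open at its end. A second annotated transcript runs on through the next gene, AT4G18720, so the 3′ UTR of the main transcript is intron in the other.

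*SK31*, which occupies chr3:22635803-22638817, plus strand, had a single region, decreased with a log2 fold change of -1.56. It spanned 275 bp (chr3:22635480-22635754), all of it upstream of the gene, and ended 49 bp before the TSS. By size it ranked 2410 of 3278, the smallest change of the 3 decreased kinase regions. The next gene upstream, *HDG1* (AT3G61150), which encodes a homeodomain leucine zipper protein of class IV, is on the same strand and ends 647 bp before *SK31*, so the region lay between these genes. *SK31* has no increased region within 6618 bp. The nearest one, at that distance upstream, had a log2 fold change of 5.77, ranked 5 of 3436, and lay in *FUS6* (AT3G61140), which encodes a subunit of the COP9 signalosome.

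*SK13* (chr5:4718994-4722371, minus strand) had a decreased region of 766 bp (chr5:4722278-4723043). The log2 fold change was -2.07, ranked 1235 of 3278. Most of it, 672 bp, was upstream of the gene and 94 bp was 5′ UTR, and 27 bp at its far edge reached the long non-coding RNA gene AT5G02265. The region held the 1 CACGTG found under any kinase region, centred 18.5 bp past the TSS and shown here in capitals within 30 bases of its strand.
*SK13* G-box site, chr5:4722338-4722367, minus strand: accaaaacacgcCACGTGtgcggatactct
A CGTGTG overlaps this G-box. CACGTG was present in 33.9% of all decreased regions and in 11.6% of all increased regions, and TGGGCC, present in the decreased regions of *SK13* and *SK31*, in 38.4% of decreased and in 414 of the 3436 increased regions. No increased region of a kinase held CACGTG, but TGGGCC was present in the increased region of *SK12* that lies in *MUG7*, and CGTGTG in the wider increased region of *SK32*. The nearest increased region to *SK13* lay 2541 bp past its end, over *DRM2* and AT5G14610, with a log2 fold change of 5.21, ranked 18 of 3436. *DRM2* encodes the de novo DNA methyltransferase of plants. This region is outside the window and belongs to no kinase.

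*SK32* is known for a role in floral cell expansion. It occupies chr4:293588-297479, minus strand, and had the increased region for which the family was chosen (chr4:293907-293958). Its log2 fold change was 6.12, which, read as a log2 ratio, makes accessibility in *h3.3ko* 69.4-fold that in Col. In the increased list it ranked 3 of 3436, with 6.83 at rank 2 and 6.02 at rank 4. The region was 52 bp wide and lay in the 3′ UTR, in exon 13 of 13, from 158 to 209 bp past the stop codon and with its midpoint 344.5 bp before the TES. This is far narrower than the median increased region of 750 bp. Only 3 of the 3436 increased regions (0.0873%) were 52 bp or narrower, and the 8 increased regions of up to 100 bp had a median log2 fold change of 3.73, against 3.11 for the 1075 regions over 1000 bp. How many reads in each genotype lie behind a ratio over 52 bp is unknown. Each of the 22 31-base words in it occurs once in the nuclear reference genome.

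A second increased region of *SK32* (chr4:292246-293484) had a log2 fold change of 3.49, ranked 917 of 3436. It began 104 bp past the TES and lay wholly within *BSK3* (AT4G00710), the receptor-like cytoplasmic kinase gene of the same hormone pathway, which runs towards *SK32* on the other strand and ends 95 bp from it. Its 1239 bp covered the 3′ part of *BSK3*, with the midpoint 627 bp before the TES of that gene, and 397 bp of it fell in the window of *SK32*. The increased regions on either side of the gene ends are 422 bp apart. A decreased region with a log2 fold change of -2.44 covered the start of *BSK3*, 3390 bp from *SK32*. *SK32* itself had no decreased region in its window, and the upstream neighbour *ANL2* (AT4G00730), another class IV homeodomain gene, lies 1781 bp away.

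*SK23*, annotated as *SKdZeta* in the reference and one of the close homologues of *BIN2*, occupies chr2:13182025-13185973, minus strand. Its increased region over the gene's end (chr2:13182000-13182862) had a log2 fold change of 2.21, ranked 2801 of 3436. Of 863 bp, 282 bp were coding, 231 bp intron and 325 bp 3′ UTR, and 25 bp lay past the TES. The convergent gene *ASP1* (AT2G30970), which encodes an aspartate aminotransferase, overlaps the end of *SK23*, and 51 bp of the region fell in it. The other increased region (chr2:13181035-13181623), whose log2 fold change was 2.78 (rank 2032), lay wholly in *ASP1*, and 99 bp of its 589 bp fell in the window.

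*SK12*, whose product phosphorylates the flowering regulator CONSTANS, also had a pair of increased regions. The gene occupies chr3:1739777-1743163, plus strand. The region over its last exons (chr3:1742700-1743151) had a log2 fold change of 2.12, ranked 2896 of 3436, and held 128 bp of coding exon, 100 bp of intron and 224 bp of 3′ UTR, in exons 11 and 12 of 12. The other region (chr3:1743623-1744252), whose log2 fold change was 1.84 (rank 3113), lay in the convergent gene *MUG7* (AT3G05850), a gene derived from a transposase. It reached 41 bp into the window, the smallest overlap of any region counted. *SK12*, *SK23* and *SK32* each had 1 increased region that overlapped their own 3′ UTR and another in the 3′ part of a convergent neighbour. The first of these passed the TES by 25 bp at *SK23*, whereas it ended 12 bp before the transcript end at *SK12* and 319 bp before it at *SK32*.

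*SK11*, whose kinase is known to phosphorylate a glucose-6-phosphate dehydrogenase under salt stress, occupies chr5:9399377-9402476, minus strand. It was the 1 kinase with an increased region upstream. The region (chr5:9403290-9404739) had a log2 fold change of 2.56, ranked 2343 of 3436, and was the widest at 1450 bp. It began 814 bp upstream of the TSS and had 187 bp in the window. Most of it, 82.6%, lay in the body of the upstream gene AT5G26760, on the same strand, and its midpoint was 471.5 bp before the end of that gene. The region is therefore also a 3′ region, of the neighbour. No region touched the body of *SK11*.

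Across the family, 3 of the 8 increased regions lay inside a kinase gene, 1 partly inside and 4 outside. The distance from the midpoint of an increased kinase region to the nearest transcript end of any gene ran from 237.5 to 696 bp, with a median of 498 bp, against 455.5 bp for all increased regions. For the decreased kinase regions the midpoints were 2 bp (*BIN2*), 199 bp (*SK31*) and 289.5 bp (*SK13*) from the nearest transcript start, against a median of 227.5 bp for all decreased regions. Median distances to the other kind of gene end were longer at the kinases. *BIN2* (1100 bp) and *SK11* (1538.5 bp) were below the median of all increased regions, however, and *SK31* (462 bp) below that of all decreased ones. Increased kinase regions had a median of 2966.75 bp to the nearest transcript start, against 1824.5 bp for all increased regions, and decreased kinase regions a median of 3253 bp to the nearest transcript end, against 1851.25 bp for all decreased regions. The median log2 fold change was 2.67 for increased kinase regions, against 2.97 for all increased regions, and -2.07 for decreased kinase regions, against -1.89 for all decreased regions. In base composition, the observed/expected CG ratio had a median of 0.567 under increased kinase regions, against 0.625 for the whole list, and of 1.22 under decreased kinase regions, against 1.02. The 52-bp region of *SK32* held no CG.

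**Figure D2:**
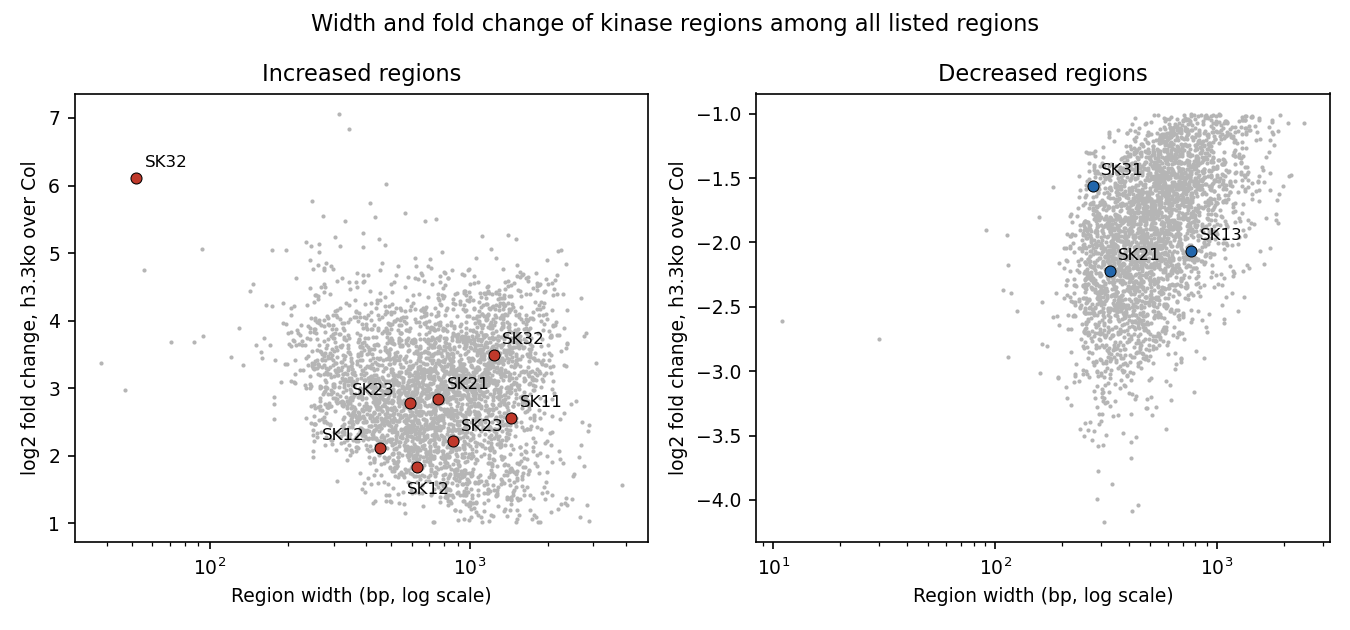
Width in bp (x axis, log scale) and the authors' log2 fold change (y axis, *h3.3ko* over Col) of every listed region (grey) and of the kinase regions (red, increased; blue, decreased), each labelled by its kinase. The 52-bp region of *SK32* stands at the top left at 6.12, away from the other 7 increased kinase regions, which lie between 1.84 and 3.49, and the 3 decreased ones lie between -2.22 and -1.56 inside the cloud of the list.

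The kinases are close paralogues, so the proteins encoded by their main transcripts were aligned and the coding bases under the regions compared. The proteins have 380 residues (*BIN2*) to 472 residues (*SK32*). Identity over the 45 pairs was 66.0% to 95.3%, with a median of 86.8% within the 4 subgroups (8 pairs) and 71.6% between them (37 pairs). The most similar pair, *SK11* and *SK12* at 95.3%, shared the increased class, although the region of *SK11* is the 3′ part of its neighbour. *SK41* and *SK42*, at 91.0%, shared the absence of any region. *SK22* and *SK23*, at 93.4%, differed, since *SK23* had increased regions at its 3′ end and *SK22* had none in its window. *SK13* (decreased) differed in class from *SK11*, at 86.7%, and from *SK12*, at 84.6%. *SK31* (decreased) and *SK32* (increased), at 73.7%, differed as well, although the closest protein to *SK32* was that of *SK13*, at 77.8%. Listed regions therefore did not follow protein likeness in every subgroup.

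**Figure D3:**
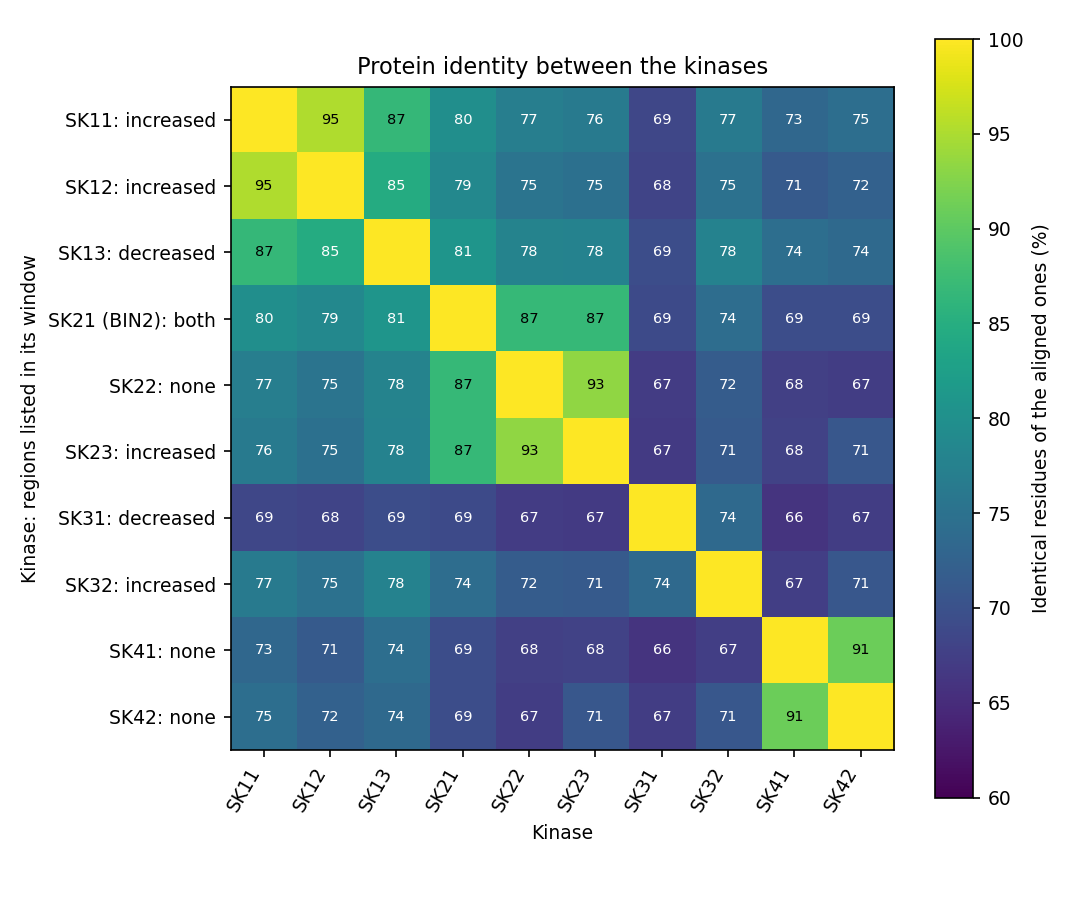
Protein identity in percent (colour scale and numbers) between each pair of the 10 kinases, with the class of listed regions beside each name on the y axis. *SK22* and *SK23* share 93.4% of aligned residues but fall in different classes, while *SK41* and *SK42*, at 91.0%, both have no region.

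The increased regions of *BIN2*, *SK23* and *SK12* took in the last 24.7%, 22.8% and 10.4% of the coding sequence. For *BIN2* and *SK23* these were corresponding bases: all 279 aligned bases lay inside both regions, with 73.8% identical and a longest identical run of 17 bp. *SK22* had no region, yet its aligned bases were 83.7% identical to those of *SK23*, with a longest identical run of 26 bp. The corresponding 84-bp exon of these 3 genes is printed to show this, with capitals for bases that differ from *SK23*.
*SK23*, chr2:13182778-13182861, minus strand, in an increased region: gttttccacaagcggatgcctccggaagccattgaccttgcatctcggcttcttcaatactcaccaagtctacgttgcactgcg
*BIN2*, chr4:10298550-10298633, plus strand, in an increased region: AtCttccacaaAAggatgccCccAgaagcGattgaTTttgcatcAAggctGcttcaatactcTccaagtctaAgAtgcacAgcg
*SK22*, chr1:1949938-1950021, plus strand, in no region: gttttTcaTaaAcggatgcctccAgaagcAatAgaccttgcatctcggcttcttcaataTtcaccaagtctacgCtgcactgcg
Over this exon *BIN2* differed from *SK23* at 16 bases and *SK22* at 8 bases. In the last coding exon of *SK12*, without its stop codon, *SK11* differed at 14 of 80 bases, and here capitals mark bases that differ from *SK12*.
*SK12*, chr3:1742845-1742924, plus strand, in an increased region: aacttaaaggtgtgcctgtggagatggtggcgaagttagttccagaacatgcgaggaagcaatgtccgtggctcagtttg
*SK11*, chr5:9399585-9399664, minus strand, in no region: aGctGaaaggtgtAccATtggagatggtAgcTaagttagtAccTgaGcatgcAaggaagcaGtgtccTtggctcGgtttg
The reference sequences of these paralogues thus differ within the printed exons. How reads were assigned between paralogues was not tested. Under the increased region of *BIN2*, 96.6% of all 31-base words occur once in the nuclear genome, with at most 3 copies of any, and under every other kinase region at least 99.7% do.

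The kinases without a region in the window differed in how far the nearest one lay. At *SK22* (chr1:1946746-1950860, plus strand) a decreased region with a log2 fold change of -2.14 lay 2654 bp past the gene, over AT1G04453, and an increased region with 5.48, ranked 12 of 3436, lay 5926 bp past it in *TPS7* (AT1G06410), which belongs to the trehalose-6-phosphate synthase family. Around *SK41* (chr1:3195719-3200403, minus strand) the nearest regions were 13756 bp (increased) and 22046 bp (decreased) past the gene. Those of *SK42* (chr1:21431051-21436329, minus strand) lay upstream, at 6750 bp (decreased) and 27663 bp (increased).

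The rest of the brassinosteroid pathway was examined with the same window in a list of 38 genes. Increased regions were found at 12 of the 38 and decreased regions at 13, of which 4 had both, and 17 had neither. Of all protein-coding genes, 18.1% had an increased region, 15.8% a decreased one, 3.90% both and 70.0% neither. Among those in the kinases' length range the shares were 31.4%, 19.6%, 7.99% and 57.0%. The pathway genes were not matched for length, and their counts are a description. Among 7 receptors and co-receptors, 3 had an increased region: *BRI1*, the hormone receptor, with log2 fold changes of 4.16 and 1.56, and the co-receptors *SERK2* with 2.77 and 2.39 and *BAK1* with 3.05. *BAK1* had a decreased region as well, with -2.39, across its start. Its arrangement, lower accessibility at the start and higher towards the end, was that of *BIN2*. It is not particular to these genes. The other pathway genes with regions of both lists, *BSK3*, *ABI5* and *ARF2*, had a decreased region over or upstream of the start and an increased one towards the end. The paper reports such a change at genes across the genome of *h3.3ko* seeds. *BKI1*, the receptor's inhibitor, had none.

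Downstream of the receptors, *BSK3* was the 1 of 4 receptor-like cytoplasmic kinase genes with regions, and it shared both increased regions of *SK32*. Of the 4 genes for BSU1 family phosphatases, which dephosphorylate BIN2, 3 had increased regions and none a decreased one. *BSL2* had a log2 fold change of 4.81 near its end, ranked 46 of 3436, and 3.22 upstream, *BSL3* had 2.45 and *BSL1* had 3.40 upstream of its TSS. The *BSL1* region ran from -2213 to -895 bp relative to the TSS, so most of it lay outside the 1 kb window. *KIB1*, the F-box protein gene that promotes removal of BIN2, had no region. Of 6 genes for BZR transcription factors, the targets of BIN2, 4 had a decreased region, *BES1* with -1.86, *BEH2* with -1.85, *BEH3* with -1.47 and *BZR1* with -1.01, and 1, *BEH4*, an increased one with 1.73. The value of *BZR1*, ranked 3270 of 3278, is close to the authors' limit of a 2-fold change.

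Among 6 other substrates, 3 had an increased and 3 a decreased region. *ARF2*, an auxin response factor, had both, with log2 fold changes of 4.58 and -2.24, and *ABI5* had both, with 3.82 and -1.71. *ARF7*, which activates auxin responses, had increased regions with 3.01 and 2.89, and *PIF4*, a light and temperature signalling factor, a decreased one with -2.01. In the 9 genes of hormone synthesis and inactivation, 4 had decreased regions: *DWF4*, which encodes the rate-limiting 22-hydroxylase, with -2.44, *CPD* with -2.32, *ROT3* with -1.99 and -1.79, and *BAS1*, which inactivates the hormone, with -1.07. Of these, only the region of *DWF4* lay upstream of its gene. That of *CPD* lay in coding sequence, those of *ROT3* inside the gene and over its end, and that of *BAS1* inside the gene. The value of *BAS1*, ranked 3217 of 3278, is also close to the 2-fold limit. *BR6OX2*, which makes the most active brassinosteroid, had an increased region with 2.28. Decreased regions were more frequent than increased ones in the genes for BZR factors and for hormone synthesis and inactivation. These counts include *BZR1* and *BAS1*, whose values are near the 2-fold limit. Increased regions were more frequent than decreased ones in the genes for receptors (3 of 7) and phosphatases (3 of 4). The phosphatase count includes *BSL1*, whose region lay mostly outside the window. Of all protein-coding genes, 18.1% had an increased region and 15.8% a decreased one. Among those in the kinases' length range the shares were 31.4% and 19.6%. The groups are too small for more than the counts, and no length-matched share was computed for them.

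**Figure D4:**
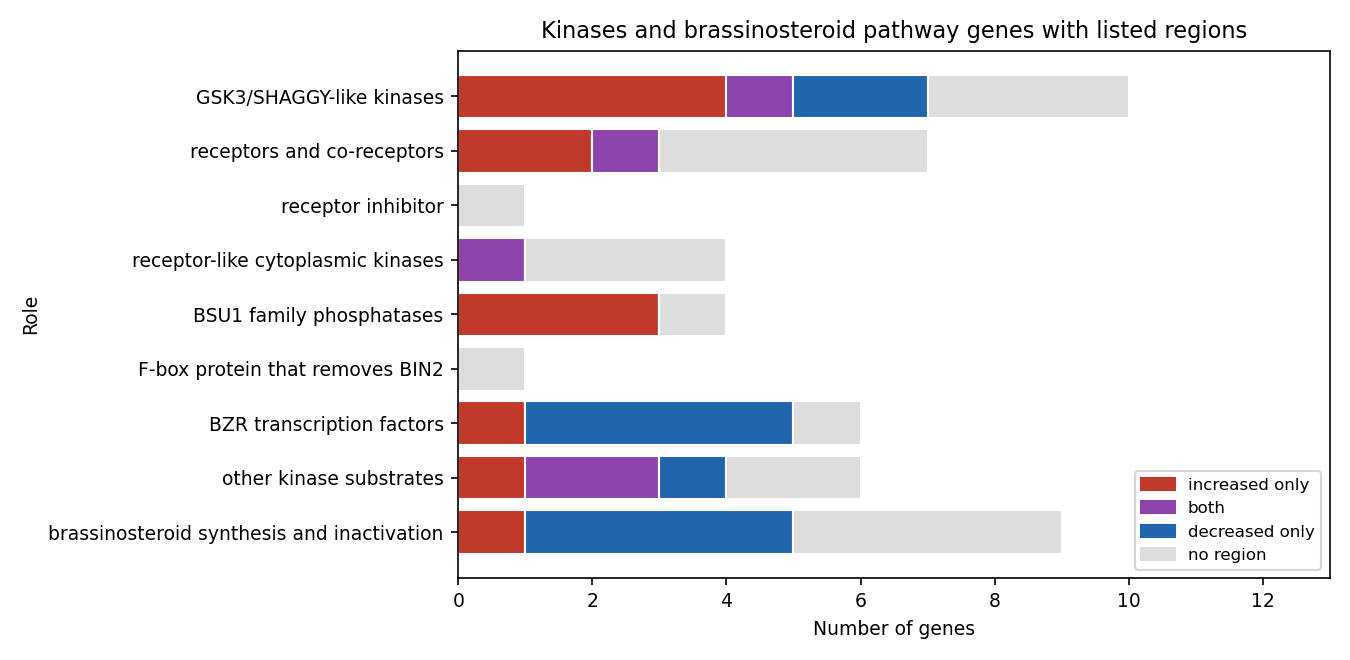
Number of genes (x axis) in each role of the brassinosteroid pathway (rows) with increased regions only (red), regions of both lists (purple), decreased regions only (blue) or no region (grey) in *h3.3ko* over Col. The kinases have 4, 1, 2 and 3 genes in these classes, the BSU1 family 3 increased genes of 4, and the BZR factors 4 decreased genes of 6.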

How the data were processed

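ATAC-seq was done on nuclei of mature seeds, 2 libraries for each genotype. The authors used fastp 0.20.1 for trimming, Bowtie2 for mapping to TAIR10, Picard 2.24.0 for duplicates and MACS2 for peaks in each library; organelle reads and duplicates were discarded, and peaks shared by both replicates of a genotype were merged across genotypes and scored with deepTools. They deposited those that differed over 2-fold past their adjusted P threshold, each with 1 value without a header, read here as the log2 fold change (*h3.3ko* over Col). The test behind that P value and any shift for Tn5 are not given in the sources used here, so edges may be off by a few bases. Values of the 2 lists are the authors' and were used as description, with no test.

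Starts were turned into 1-based positions and joined to TAIR10.1 (RefSeq) with Python 3.11.15 and numpy 2.4.6. The overlap functions were tested on simulated data. Main transcripts were translated and aligned globally with Biopython 1.88 (a BLOSUM matrix, gap open 11, extend 1, free end gaps). Words of 31 bases were counted on both strands. Figures used matplotlib 3.10.9. The genes named are all kinases, genes that share their regions, and the pathway genes with a region; neighbours and nearest genes were named after their values were seen. Members, window and pathway list were chosen with earlier results of these data known, and the length-range comparison, TGGGCC and the exons printed after seeing the data. Alternatives were the window, the overlap required, a 4-fold limit and 1 gene for each region.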

Additional observations from a re-analysis of the deposited data

How the results depend on the processing

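The alternatives changed which kinases were counted as follows. Increased regions were found at 4 or 5 kinases and decreased regions at 2 or 3 under every window, overlap rule and fold limit tried, and *BIN2* had both in each. Over the same settings, 11.8% to 20.8% of all protein-coding genes had an increased region and 7.34% to 19.1% a decreased one. With the gene body alone, 5 kinases had no region instead of 3, because the regions of *SK11* and *SK31* lie wholly upstream, and 10.5% of all protein-coding genes had a decreased region. *SK11* was lost when the midpoint or 50% of a region had to lie in the window, and when each region was given to 1 gene. In that last setting 11.8% of all genes had an increased region. Only regions over 4-fold left 7.34% of all genes with a decreased region and removed *SK31*. Within the kinases' length range, a comparison chosen after seeing the data, 31.4% had an increased region. No paired analysis was possible because the lists hold no values for single libraries, and for the same reason no replicate could be left out. Depth is unknown, which bears most on the 52-bp region of *SK32*.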
